A study of Mus musculus with 14 samples.

Results

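In 222 loci of mouse 3T3 cells, the 3′ end with the most reads after 8 h of actinomycin D was not the one with the most reads in the control libraries. A locus is a run of annotated poly(A) sites on a shared strand, in which each site lies no more than 2000 nt from its neighbour. A locus entered if it had 2 or more ends, at least 200 reads over both controls and at least 30 reads at 8 h, and if both controls put the same end on top. Of 17807 loci, 7666 had 2 or more ends, 3539 met the read minima and 3386 of these had the same top end in both controls. The 222 switching loci were 6.56% of these 3386. Another 13 loci had ends tied at 8 h and were not counted, and 3151 kept their top end. The end that led at 8 h is called the new end here, and the end that led in the controls the old end. The loci were chosen by the control and 8 h counts, so the switch itself, its direction and its size are given as a description with no test.

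3T3 is an established fibroblast line. The study counted mRNA 3′ ends by 2P-Seq, an assay that primes reverse transcription on the poly(A) tail and sequences from the tail inward. The libraries came from cells left 1, 2, 4 and 8 h in actinomycin D at 10 µg/ml, 1 library per time, from 6 fractions of a sucrose gradient, 1 library per fraction, and from 2 controls. No actinomycin D is named in the labels of the fractions, and the fractions are called here by the numbers in the authors' table, 0, 1, 2.5, 4.5, 7.5 and 12. Nothing in the labels says whether the controls came from separate cultures.

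Many mammalian genes carry several poly(A) signals in their last exon, and the site at which the nascent RNA is cleaved sets the length of the 3′ untranslated region. The stretch between a proximal and a distal end is present only in the longer mRNA and can hold binding sites for microRNAs and for proteins that act on decay or translation. Actinomycin D intercalates into DNA and blocks transcription, so that mRNA made before its addition is followed as it is lost. In a sucrose gradient, mRNAs with more ribosomes sediment further. The table used here gives positions in the mm9 build and pairs no site with a gene, so loci are named by the positions of their ends and the cell type was not checked against marker genes.

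The libraries held 5843403 and 6433503 reads in the controls, 6111232, 5858649, 5048797 and 4045420 reads at 1, 2, 4 and 8 h, and 1663346 to 11575417 reads in the fractions. The controls differed by more than sampling noise, with a chi-square of 10.9 per degree of freedom over 18330 sites, and were used as 2 libraries. They put different ends on top in 142 of 3539 loci (4.01%). Set against the order shared by the controls, another end led in 65, 131, 147 and 222 loci after 1, 2, 4 and 8 h. In the 6 fractions another end led in 171 to 212 of the same 3386 loci. The count at 8 h was thus only a little above the highest count in a fraction, and the median locus had fewer reads at 8 h (183) than at 1 h (462), 2 h (377) or 4 h (275). The part of depth in these counts was not tested.

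Most switches went towards the 5′ side. The new end was proximal to the old end in 149 of 222 loci (67.1%) and distal in 73. In the 3151 loci that did not switch, the strongest other end was proximal in 60.8%. Both ends of a switching locus lay a median of 436 nt apart, with a range of 21 to 3831 nt, against a median of 281 nt between the corresponding ends of the loci that did not switch. The distance was under 100 nt in 60 switching loci, 100 to under 500 nt in 57, 500 to under 1000 nt in 45 and 1000 nt or more in 60. Switches towards the proximal end made up the larger number in each of these classes, with 41, 35, 29 and 44 loci. In the loci that did not switch, the strongest other end was also mostly proximal in each class, in 629 of 1004, 536 of 940, 341 of 536 and 409 of 671 loci. The difference between both groups was not tested.

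The switching loci more often had many ends than the loci that did not switch. Of the 222, 51 had exactly 2 ends, 58 had 3 and 113 had 4 or more, which is 50.9% with 4 or more against 31.7% of the loci that did not switch. Under the rule, a locus with more ends has more ends that can take the lead. The part of this in the difference was not tested. In 95 loci another annotated end lay between the new and the old end. The new end was the most proximal of its locus in 95 of the 149 switches to a proximal end, and the most distal in 49 of the 73 switches to a distal end. It had ranked second in the controls in 192 of 222 loci. At the 51 loci with exactly 2 ends, 34 of them proximal and 17 distal switches, this rank and the outermost place are fixed by the rule.

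At many loci the lead was small. Taking the reads of the new and old ends alone, the new end's share had medians of 40.03% and 40.3% in controls 1 and 2 over the 222 loci, and of 43.2%, 47.8%, 49.1% and 57.9% after 1, 2, 4 and 8 h. The new end held more than 40% already in the controls in 114 loci, and under 30% in 38. The share at 8 h was a median of 20.4 percentage points above the mean of the controls. It was at least 50 points above in 13 loci and under 10 points above in 39. In 101 loci the Wilson 95% interval of the share at 8 h lay wholly above 50%, 69 of them switches to a proximal and 32 to a distal end. Among the 3386 loci, another end led as clearly in 18, 51 and 66 after 1, 2 and 4 h. In the fractions named 0, 1, 2.5, 4.5, 7.5 and 12 it did so in 87, 88, 112, 114, 120 and 111 loci. By this measure 8 h thus lay within the range of the fractions, and the part of depth was not tested. The intervals hold for counting error alone, because reads copied by PCR do not each stand for a molecule. Between the controls, the new end's share differed by 3.47 points at the median locus and by 36.2 points at most, and in 7 loci the controls differed by at least as much as 8 h did from their mean.

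**Figure D1:**
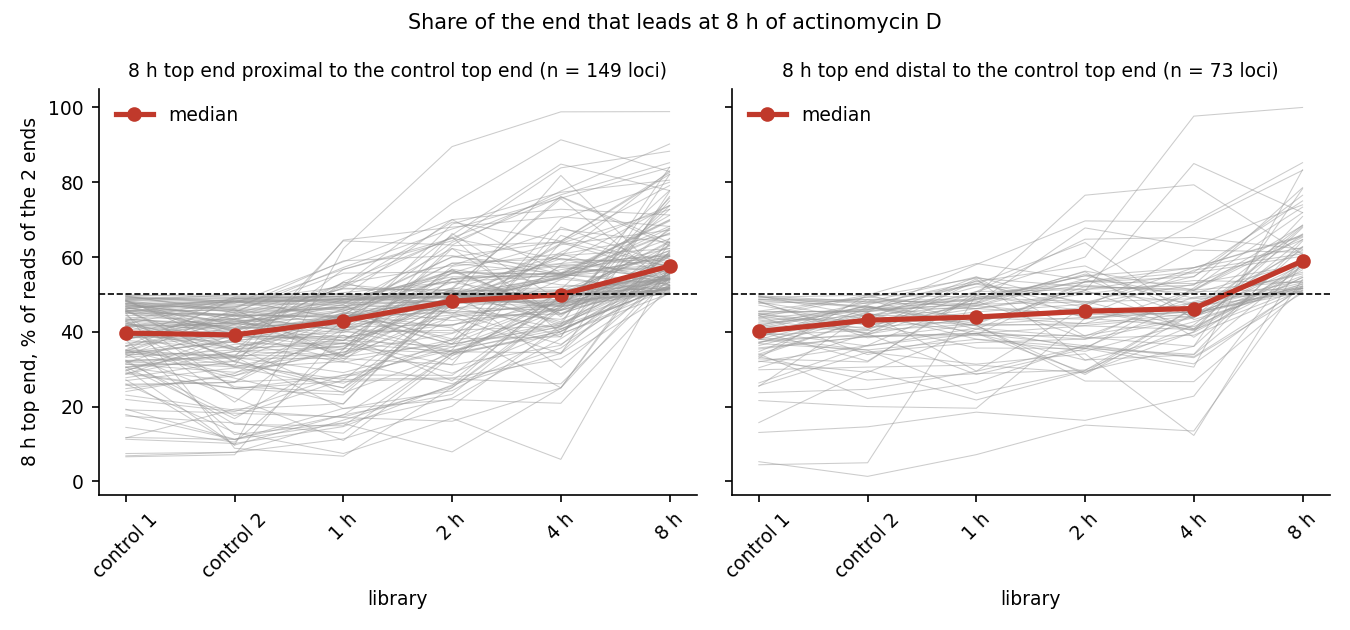
Share of the new end among the reads of both ends (y, %) in each control and at 1, 2, 4 and 8 h of actinomycin D (x), with 1 grey line per locus and the median in red, for 149 switches to a proximal end (left) and 73 to a distal end (right). The median passes 50% only between 4 h and 8 h in both panels, and a few loci stand far above it from 2 h on.

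The time of the switch, taken as the earliest library from which the new end led at every later time, was 1 h in 21 loci, 2 h in 40, 4 h in 37 and 8 h in 124. In 97 of the last group the new end had led in no earlier library. In 31 of the 222 loci the new end led at an earlier time and lost the lead again before 8 h. Among the 101 loci whose interval at 8 h lay above 50%, this time was 1 h in 19, 2 h in 24, 4 h in 19 and 8 h in 39. With 1 library per time these are orders of counts, and no time was tested against another.

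The 6 switches to a proximal end with the largest change were taken among the loci with at least 100 reads at 8 h. On chromosome 19, minus strand, the new end at 5795999 is proximal by 309 nt to the old end at 5795690. The new end had 163 and 102 reads in the controls and 127, 522, 1345 and 2123 reads at 1, 2, 4 and 8 h. The old end had 437 and 951 reads in the controls and 77, 61, 16 and 24 reads at these times. The new end led in every treated library, its share reaching 98.9% at 8 h (interval 98.3% to 99.2%), while the controls stood at 27.2% and 9.69%. Of the switching loci with at least 100 reads, this one changed most, by 80.5 points.

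On chromosome 15, plus strand, the proximal end at 103075390 overtook the distal end at 103077120, 1730 nt away, in the 1 h library. The new end had 580 and 1123 reads in the controls and 1343, 1189, 955 and 1136 reads at 1, 2, 4 and 8 h. The old end had 1213 and 2246 reads in the controls and 745, 692, 275 and 123 reads in the time course. The new end's share was close in both controls (32.3% and 33.3%) and stood at 64.3%, 63.2%, 77.6% and 90.2% afterwards, so that every treated library lay above both controls.

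At a pair of loci with fewer reads the new end also led from 1 h on. On chromosome 11, plus strand, the proximal end at 70267038 lies 187 nt before the old end at 70267225, and its share was 30.6% and 32.2% in the controls and 53.4%, 65.1%, 76.6% and 85.2% at 1, 2, 4 and 8 h. On chromosome 5, minus strand, the proximal end at 92715769 lies 2728 nt before the old end at 92713041, and its share was 42.6% and 35.2% in the controls and 56.7%, 64.3%, 83.8% and 88.3% in the time course. At 8 h these shares rested on 98 new against 17 old reads on chromosome 11 and on 98 new against 13 old reads on chromosome 5. A later switch was seen on chromosome 11, plus strand, from the end at 100953519 to the one at 100952828, 691 nt proximal. Its new end held 34.5% and 33.8% of the reads in the controls and 46.2% after 1 h, led by 144 reads against 96 after 2 h, and held 64.2% and 82.1% after 4 and 8 h.

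The sixth of these loci rests on controls that disagree. On chromosome 5, minus strand, the proximal end at 108550876 had 41 reads against 50 for the old end at 108550661 in control 1, and 19 against 196 in control 2. Its share was 45.1% and 8.84% in the controls, and 6.72%, 25.1%, 47.1% and 72.7% after 1, 2, 4 and 8 h. The 1 h library lay below both controls and the 4 h library near control 1, so only 8 h stood clearly apart from the controls.

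Switches towards the distal end were fewer, and the largest had another time course. On chromosome 11, plus strand, the distal end at 68887064 had 11 and 8 reads in the controls and 159, 551, 525 and 264 reads at 1, 2, 4 and 8 h. The old end, at 68886530 and 534 nt upstream, had 237 and 153 reads in the controls and 160, 169, 137 and 171 reads in the time course. The old end's reads overlapped between the controls and the treated libraries, whereas those of the new end did not, and its share was 4.44% and 4.97% in the controls and 49.8%, 76.5%, 79.3% and 60.7% in the time course. Over the header factors, by which the authors divided the counts of each library, the new end at 8 h was 33.7 times its control mean and the old end 1.06 times.

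On chromosome 10, minus strand, the distal end at 80362656 had 515 and 612 reads in the controls and 718, 1235, 805 and 825 reads at 1, 2, 4 and 8 h. The old end, at 80364108 and 1452 nt upstream, had 841 and 739 reads in the controls and 520, 538, 355 and 143 reads in the time course. The new end's share was 38.0% and 45.3% in the controls and 58.0%, 69.7%, 69.4% and 85.2% in the time course, above both controls from 1 h. At 3 of the other 4 loci of this kind the larger step lay between 4 h and 8 h. On chromosome 3, plus strand, the distal end at 30718986 lies 323 nt beyond the old end at 30718663, and its share was 40.1% and 32.2% in the controls, 49.9%, 53.3% and 54.7% at 1, 2 and 4 h, and 76.5% at 8 h. On chromosome 2, plus strand, the distal end at 34480459 lies 1026 nt beyond the old end at 34479433, and its share was 49.6% and 44.1% in the controls, 52.0%, 51.4% and 52.5% at 1, 2 and 4 h, and 78.5% at 8 h.

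On chromosome 19, plus strand, the distal end at 36179243 lies 139 nt beyond the old end at 36179104 and was nearly level with it in control 2, with 288 against 290 reads. Its share was 44.4% and 49.8% in the controls and 58.3%, 53.8%, 68.8% and 83.2% in the time course, above both controls throughout. On chromosome 15, minus strand, the distal end at 96242133 lies 2877 nt beyond the old end at 96245010. Its share was 23.7% and 24.6% in the controls, 29.4%, 36.1% and 31.4% at 1, 2 and 4 h, and 52.2% at 8 h, where 83 against 76 reads gave an interval of 44.5% to 59.8%, which includes 50%.

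**Figure D2:**
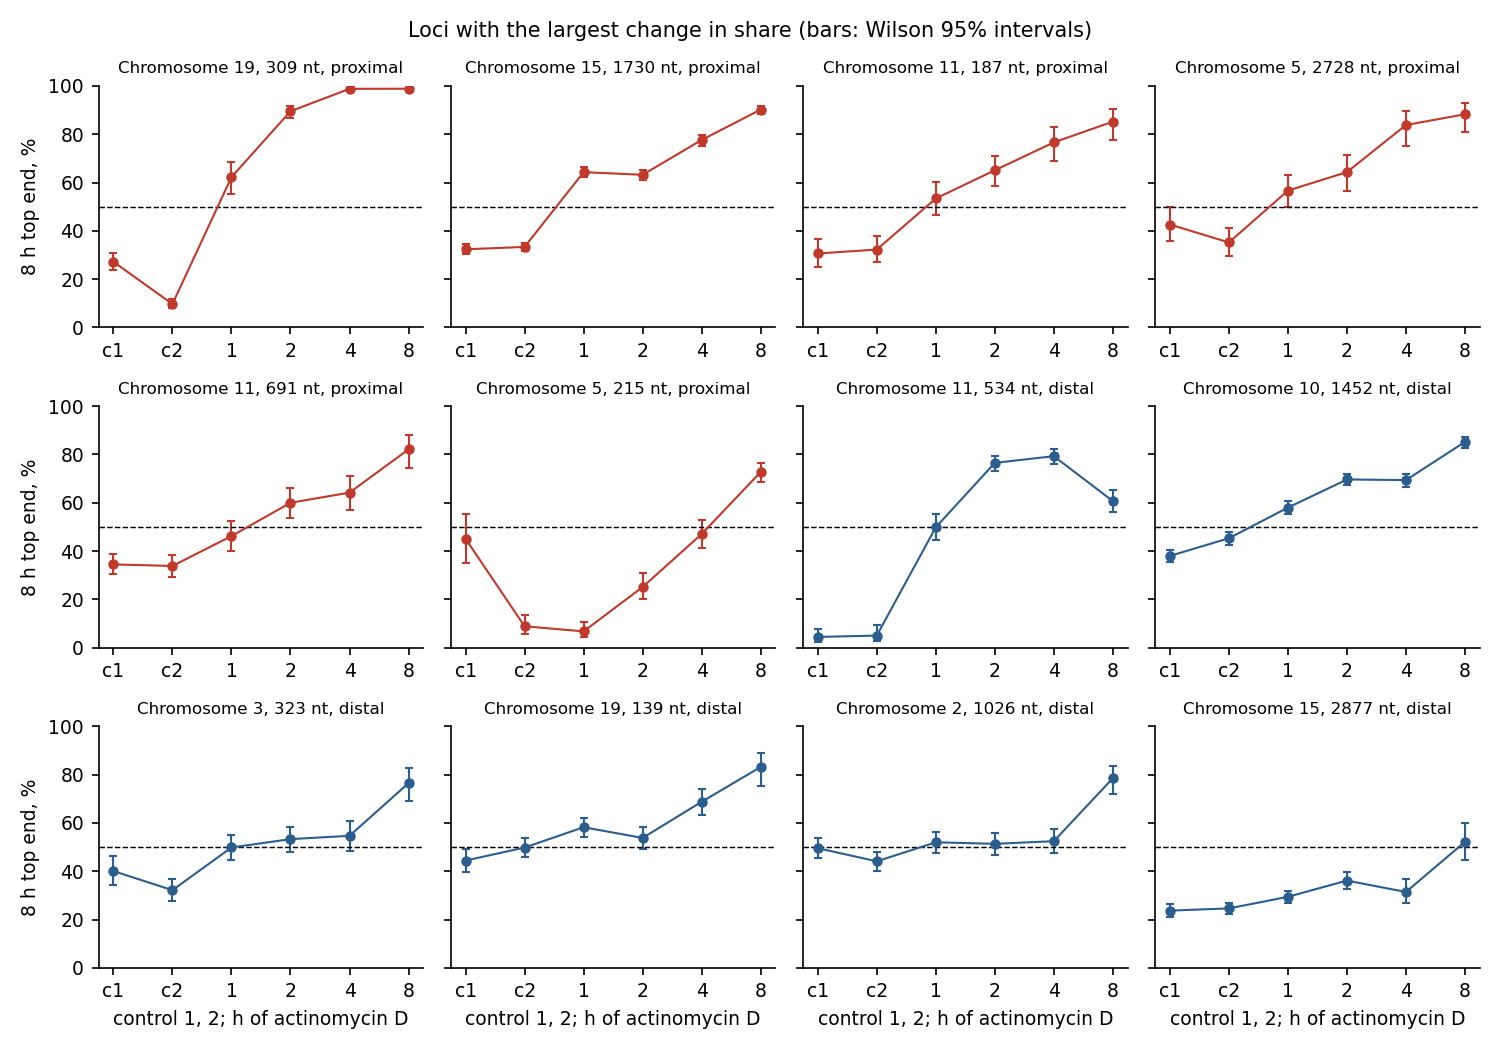
Share of the new end (y, %, with Wilson 95% intervals) in control 1 (c1), control 2 (c2) and after 1, 2, 4 and 8 h of actinomycin D (x) at the 6 switches to a proximal end (red) and the 6 to a distal end (blue) with the largest change. In the red panel for chromosome 5 with ends 215 nt apart the controls stand far apart, at 45.1% and 8.84%, and in the blue panel for chromosome 11 the share is higher at 4 h (79.3%) than at 8 h (60.7%).

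At the 4 switching loci with the most reads at 8 h, all switches to a proximal end, the ends lay 22 to 955 nt apart. On chromosome 10, minus strand, the proximal end at 128061617 lies 32 nt from the old end at 128061585 and had 1182 and 781 reads in the controls and 650, 2006, 3098 and 5534 reads at 1, 2, 4 and 8 h. The old end had 1765 and 1777 reads in the controls and 1947, 2171, 2599 and 2243 reads in the time course. The proximal end therefore led from 4 h, and the 1 h library (25.03%) lay below both controls (40.1% and 30.5%).

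A like order was seen on chromosome 4, minus strand, where the proximal end at 118950768 lies 185 nt from the old end at 118950583. Its share was 44.5% and 24.8% in the controls, and 23.1%, 47.6%, 54.5% and 64.9% after 1, 2, 4 and 8 h. At both of these loci control 1 had the higher share and the 1 h library the lowest. Over the 222 loci the share was higher in control 1 than in control 2 in 119, and the 1 h share lay below both controls in 49.

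On chromosome 18, minus strand, the proximal end at 52676675 lies 955 nt from the old end at 52675720. It had 2290 and 3404 reads in the controls and 3058, 2602, 2203 and 2494 reads at 1, 2, 4 and 8 h, while the old end had 2449 and 4134, then 3510, 2215, 1754 and 1509 reads. Its share of 62.3% at 8 h had an interval of 60.8% to 63.8%, and the controls stood at 48.3% and 45.2%. On chromosome 11, minus strand, ends at 51414394 (new) and 51414372 (old) are 22 nt apart, and the proximal end held 54.2% at 8 h against 49.2% and 48.1% in the controls.

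Closely spaced ends carry a limit of their own. Among neighbouring ends under 40 nt apart with at least 200 reads each over the 12 libraries, 91 of 1130 pairs (8.05%) had counts that differed by less than 5% in sum over all libraries, against 2 of 852 pairs at 40 to under 100 nt and 2 of 2703 at 100 to 2000 nt. The file headers do not say whether a read can be counted at more than one end, and the cause was not tested. Of the switching loci, 37 had ends under 40 nt apart and 16 had such near-equal counts. Without these 37 loci, 185 switching loci were left, 120 of them switching to the proximal end. Of the 101 loci with an interval above 50%, 93 had ends at least 40 nt apart.

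The threshold of the rule runs through near-equal ends. Just inside it, the ends on chromosome 15, minus strand, at 25293247 (new) and 25293039 (old) had 624 and 623 reads at 8 h, and those on chromosome 2, plus strand, at 29699565 (new) and 29699586 (old), 21 nt apart, had 527 and 526 reads. Just outside it, the ends on chromosome 10, minus strand, at 80128076 and 80128053 had 63 reads each, and those on chromosome 15, minus strand, at 100225390 and 100223088 had 26 reads each.

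At most switching loci both ends had fewer reads at 8 h than in the controls, and the old end more so. After division by the header factors, both ends were lower at 8 h than the control mean in 155 of 222 loci, the new end was higher and the old end lower in 55, and both were higher in 12. With CPM, counts scaled to the library total, these classes held 124, 75 and 23 loci. The ratio of 8 h to the control mean had a median of 0.74 at the new ends and 0.25 at the old ends after the header factors, and of 0.92 and 0.31 in CPM. In the loci that did not switch, the header factors gave medians of 0.59 at the other ends and 0.53 at the control top ends. The other end was higher at 8 h in 882 of these 3151 loci, against 67 of 222 new ends. The control top end was higher in 610 of the 3151, against 12 of 222 old ends. The rule uses these counts, so this is a description. The old end was more than halved in 160 loci, and the new end more than doubled in 16, against 143 and 26 loci in CPM. Neither scaling is stated to give an amount per cell, and in such bulk libraries fewer cells and less RNA per cell cannot be told apart.

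**Figure D3:**
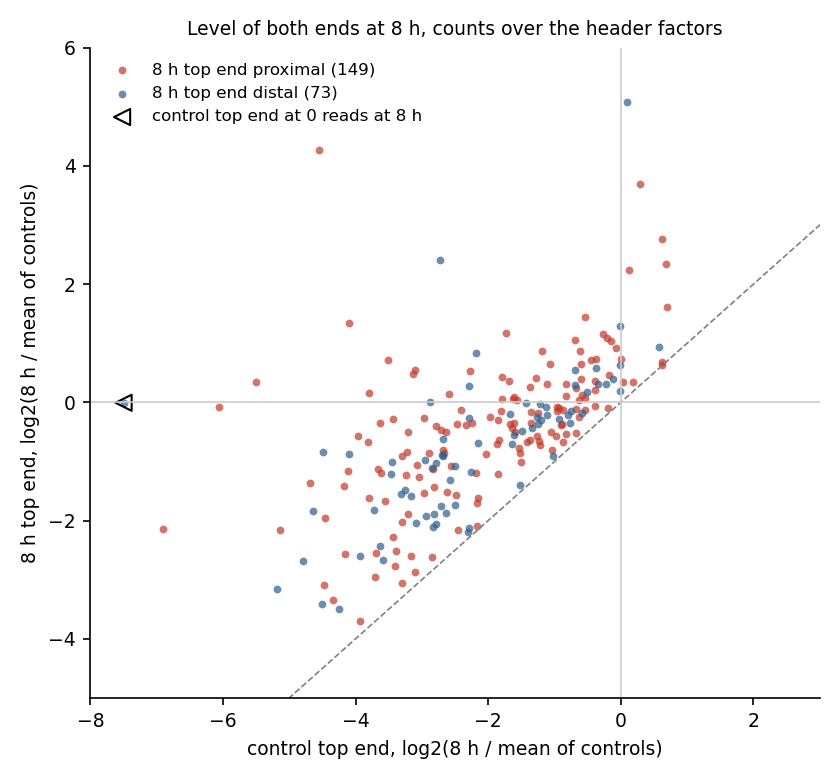
Level at 8 h over the mean of the controls, on a log2 scale after the header factors, for the new end (y) and the old end (x) of the 222 switching loci, coloured by direction. The lowest ratio of a new end, 0.0124, falls below the range drawn on y. All points lie above the dashed line of equal ratios, as the rule requires, most in the lower left part where both ends are below the controls (155 loci), and the arrowhead at the left edge marks the locus whose old end had 0 reads at 8 h and so has no log2 value on x.

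In the authors' deposited table, which gives a half-life fitted to the same libraries, the new end had the longer half-life in 203 of the 213 switching loci with a value for both ends, and the half-lives differed at least 2-fold in 72. These values use the control and 8 h counts that chose the loci and add nothing independent of the rule.

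The 1, 2 and 4 h libraries were not used to choose the loci and were tested on their own. A pair was made at each of the 3539 loci that met the read minima, also where the controls put different ends on top. It joined the end with most reads over both controls and the other end with most reads at 8 h. The change of the log2 ratio per hour was fitted within libraries with edgeR's quasi-likelihood test over 2732 pairs with at least 30 reads per end, among them 220 of the 222 switching loci. No pair passed an adjusted p of 0.05 (0% of all pairs and 0 of 220 switching loci), in a design with 3 libraries and 1 per time. At an unadjusted p under 0.05, 42 of the 220 switching loci (19.1%) had a slope towards the new end, against 7.14% of all pairs with a slope towards the other end. None of the 220 had a slope towards the old end at this threshold, against 2.78% of all pairs. With at least 100 reads per end, 36 of 206 switching loci had such a slope towards the new end and 2 towards the old end. Over all 1916 pairs with this filter, these directions held 138 and 55 pairs. DESeq2 called 19 pairs (0.695% of all pairs), 1 of them a switching locus.

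The fitted slope was above 0 in 168 of 220 switching loci (76.4%) and in 56.7% of all pairs. Its median was 0.15 per hour on the log2 scale (quartiles 0.01 and 0.34) in the switching loci and 0.02 (quartiles -0.10 and 0.18) over all pairs, with a median standard error of 0.14 in the switching loci. In the raw counts, the new end gained on the old end between 1 h and 4 h in 169 of 222 loci, against 57% of the 3386 loci. Of the switches to a proximal end, 38 of 147 (25.9%) had an unadjusted p under 0.05, against 9.94% of all pairs with a proximal other end. Of the switches to a distal end it was 4 of 73 (5.48%), against 3.05% of all pairs with a distal other end, which is nearer to its background. With ends at least 40 nt apart, 38 of 184 switching loci and 7.35% of 2176 pairs had an unadjusted p under 0.05 in this direction.

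**Figure D4:**
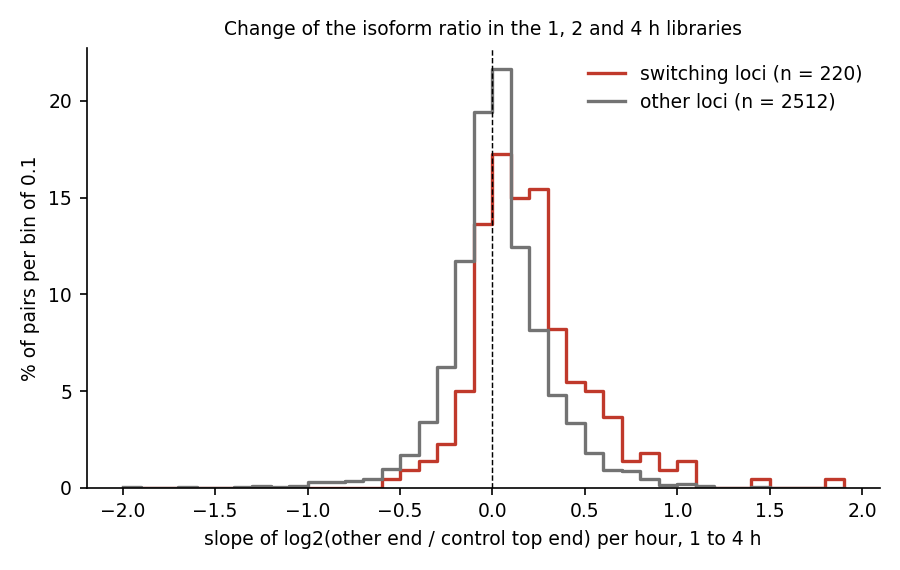
Slope of log2(other end / control top end) per hour over the 1, 2 and 4 h libraries (x, bins of 0.1) as a percentage of 220 switching loci (red) and of 2512 other pairs (grey). The red curve lies to the right of the grey one, with 76.4% of the switching loci above 0, and both overlap widely.

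The smallest unadjusted p of a switching locus in this fit was that of the chromosome 19 locus with the end at 5795999, with a slope of 1.88 ± 0.15 per hour (log2, SE) and an adjusted p of 0.4498 by edgeR over all pairs. It is the switching locus that DESeq2 called, with an adjusted p of 1.21e-11 over the pairs that passed DESeq2's filter on mean counts. On chromosome 2, minus strand, the proximal end at 35037036 lies 1304 nt from the old end at 35035732 and held 17.2% at 1 h, 25.04% at 2 h and 45.8% at 4 h, close to the controls (19.1% and 18.2%) at 1 h only. Its slope was 0.67 ± 0.09 per hour. On chromosome 8, minus strand, the proximal end at 97976819 lies 52 nt from the old end at 97976767 and held 17.8%, 35.2% and 68.0% at these times, between its controls (30.05% and 9.71%) at 1 h. Its slope was 1.08 ± 0.16 per hour. Neither of these 2 loci was called, with an adjusted p of 0.4498 by edgeR each.

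Over the gradient, the new ends had at the median about the distribution of the old ends. The authors' ribosomes per mRNA, in which each fraction's number is weighted by the end's scaled counts there, had a median of 6.54 at the new ends and 6.75 at the old ends of the 222 loci. The difference, new minus old, had a median of -0.01 with quartiles of -0.28 and 0.26. By direction, its median was -0.04 for switches to a proximal end and 0.08 for switches to a distal end. The new end had more ribosomes per mRNA in 59 of 149 and in 44 of 73 of these. Whether the directions differ was not tested. Over all 222 loci, the difference showed the following spread. The difference was 1 or more, up or down, in 15 switching loci (6.76%), against 14.5% of the loci that did not switch. In the latter, the other end held a median of only 9.30% of the pair's reads in the summed gradient. The new end of switching loci held 38.7%. The part of read depth in these percentages was not tested. By fraction, the new ends held medians of 4.22%, 6.58%, 17.3%, 15.9%, 16.96% and 27.3% of their scaled reads in the fractions named 0, 1, 2.5, 4.5, 7.5 and 12, and the old ends 3.66%, 6.55%, 16.7%, 16.98%, 17.8% and 30.2%.

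Summed over the fractions, the old end had more reads than the new end in 175 of 222 loci, which is the order of the controls. The new end had more in 47 of 222, against 145 of the 3386 loci (4.28%) in which the other end exceeded the control top end. The ends of switching loci were nearer to equal from the start. The new end's mean control share had a median of 40.4%, against 9.75% for the other end of loci that did not switch. The part of this in the count of 47 was not tested. The new end's share in the summed gradient had a median of 34.9% for switches to a proximal end and 42.3% for switches to a distal end. The selection required the old end to lead in both controls, so no test was made of this order.

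The gradient fit had 2705 pairs with at least 60 reads per end, among them 219 switching loci. By edgeR's quasi-likelihood test 5 pairs were called at an adjusted p under 0.05 (0.185% of all pairs), and 1 of them was a switching locus. At an unadjusted p under 0.05 the slope was towards heavier fractions for the new end in 13 of 219 switching loci, against 5.66% of all pairs, and towards lighter fractions in 24, against 8.8% of all pairs. The slope was above 0, which is towards heavier fractions for the new end, in 44.7% of switching loci and 46.3% of all pairs. These shares in the switching loci are near those of all pairs.

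Of the 148 switches to a proximal end in this fit, 22 had a slope below 0 and 5 a slope above 0 at an unadjusted p under 0.05, against 10.3% and 3.11% of all pairs with a proximal other end. Of the 71 switches to a distal end, 8 had a slope above 0 and 2 a slope below 0 at the same unadjusted threshold, against 9.2% and 6.64% of all pairs with a distal other end. At any p, the slope was above 0 in 60 of the 148 and in 38 of the 71. Apart from the 1 locus named next, none of these slopes passed the adjusted threshold by edgeR. The difference between switching loci and other loci was not tested.

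The locus called over the gradient lies on chromosome 8, plus strand, with its new end at 114544343, 1245 nt distal to the old end at 114543098. In the fractions named 0, 1, 2.5, 4.5, 7.5 and 12 the new end had 64, 81, 36, 10, 21 and 28 reads, and the old end 19, 44, 86, 63, 234 and 452 reads. The new end thus led in the fractions named 0 and 1, with 77.1% and 64.8% of the reads, and the old end in the other 4, where the new end held 5.83% to 29.5%. The slope was -1.22 ± 0.10 per fraction (log2, SE), with an adjusted p of 0.0071 by edgeR over all pairs. This call was lost without the fraction named 1 (adjusted p = 0.0652), without the fraction named 7.5 (adjusted p = 0.0845) and with the fraction names as the covariate (adjusted p = 0.198), and DESeq2 called it along with 6 other switching loci among 70 pairs (2.59% of all pairs). The authors' ribosomes per mRNA were 2.38 at the new end and 8.11 at the old end.

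In the time course this locus had few reads. The new end had 38 reads in each control and 39, 27, 42 and 31 reads at 1, 2, 4 and 8 h, and the old end had 78 and 81 reads in the controls and 38, 18, 1 and 0 reads. The new end's reads were thus about level through the time course while those of the old end ended at 0 of 31, which allows a share of up to 9.68%.

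At 3 other switching loci the ends differed by 2 or more ribosomes per mRNA. At the chromosome 10 locus with ends at 80362656 and 80364108, the authors' values were 3.69 for the new end and 8.03 for the old end. The new end held 92.6% and 93.4% of the reads in the fractions named 2.5 and 4.5 and 30.2% in the fraction named 12. Its slope over the gradient had an unadjusted p of 0.214 by edgeR, and the share was highest in the middle fractions, which a straight line does not follow.

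At the chromosome 11 locus with ends at 68887064 and 68886530, the values were 1.28 for the new end and 3.87 for the old end. The new end had 24 reads in the fraction named 0 and 1, 1, 1, 5 and 2 reads in the others, while the old end had 12, then 165, 347, 230, 110 and 111 reads. The new end, which had 551 reads at 2 h of actinomycin D, thus had few reads in every fraction. In the fraction named 0 it still led, with 66.7% of the reads of both ends, against 4.44% and 4.97% in the controls. It was left out of the gradient fit with under 60 reads. At the chromosome 15 locus with ends at 103075390 and 103077120, the values were 5.97 for the new end and 3.78 for the old end. Its new end held 72.6%, 66.8%, 73.3%, 75.5%, 86.1% and 89.4% of the reads from the fraction named 0 to that named 12, all above its share of 32.3% and 33.3% in the controls, with a slope of 0.39 ± 0.08 per fraction and an adjusted p of 0.0827 by edgeR. DESeq2 called this slope, with an adjusted p of 0.00357, and so did edgeR without the fraction named 0, with an adjusted p of 0.0294.

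**Figure D5:**
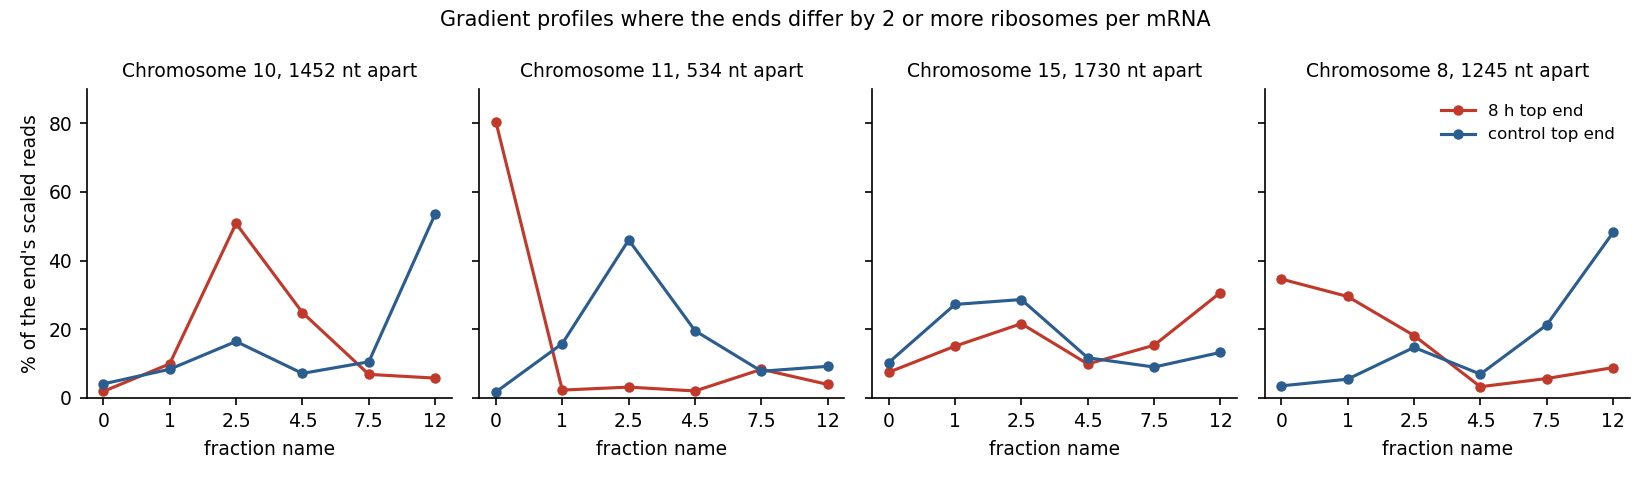
Percentage of each end's scaled reads (y) in the 6 gradient fractions (x, by the number in the fraction name) for the new end (red) and the old end (blue) of the 4 switching loci whose ends differ by 2 or more ribosomes per mRNA. On chromosome 8 and chromosome 10 the old end peaks in the fraction named 12 and the new end in lighter fractions, and on chromosome 11 most reads of the new end lie in the fraction named 0, from 24 reads.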

How the data were processed

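The deposited table holds raw counts of 2P-Seq reads at 33590 poly(A) sites, with positions in mm9 and 1 scaling factor per library, per the file headers. Reads were aligned with Bowtie, per the submitters' processing notes; the sources used here give no version. Half-life and ribosomes per mRNA are scores the authors deposited per site. Ribosomes per mRNA was recomputed from the counts within 1e-06 for 30164 of 30164 sites, with the fraction columns taken in ascending order as fractions 1 to 6, which is an assumption; the half-life's unit is not stated. Per-sample columns left unused numbered 0. Of 14 samples, 12 were used, and the 2 3P-Seq samples were not analysed here.

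Sites were joined into loci, and at each locus that met the read minima 2 ends were paired. These were the end with most reads over both controls and the other end with most reads at 8 h. Pairs were tested on raw counts with edgeR 4.0.16 in R 4.3.3 (quasi-likelihood F test, robust dispersion, TMM scaling, terms for each library and for the end, and the interaction of the end with hours or fraction number, Benjamini-Hochberg adjustment over all pairs), and with DESeq2 1.42.0 as an alternative. DESeq2 adjusted its p-values only over pairs that passed its own filter on mean counts. A positive slope means that the new end gained. The standard errors of edgeR slopes were derived from the slope and the F statistic of its test. The scripts were tested on simulated counts. With 1 library per time or fraction, the p-values rest on how far libraries scatter about a line, and this scatter may be technical. Shares carry Wilson 95% intervals, and a count of 0 was given an upper limit of 3 reads. Loci named in the text were the 6 with the largest change in each direction among those with at least 100 reads at 8 h, the 4 with most reads, those called or with the 3 smallest p values, and the 2 nearest to the threshold on each side; the 4 loci with a gap of 2 or more ribosomes were singled out after their values were seen. The loci and lists were chosen with earlier results of these data known. Alternatives changed the linkage distance, the read minima, the controls, the tool, the scaling, the filter, the fractions and the covariate.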

Additional observations from a re-analysis of the deposited data

How the results depend on the processing

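The 222 switching loci (149 to a proximal and 73 to a distal end) became 187 when ends were linked within 1000 nt, 264 within 5000 nt and 146 within 500 nt, of which 93 were proximal. With the read minima doubled 150 were left, 48 of them distal. Requiring the Wilson interval at 8 h to lie above 50% left 101, with 69 proximal and 32 distal. With a single control in the rule there were 289 to 301 switching loci, 188 to 205 proximal and 96 to 101 distal. After seeing the data, ends at least 40 nt apart (185 loci), ends at least 100 nt apart (162) and ties at 8 h decided by position (229) were added. Proximal switches outnumbered distal ones under each of these settings. Under the main setting, the strongest other end was proximal in 60.8% of the loci that did not switch.

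Over 1 to 4 h, DESeq2 called 19 pairs and 1 switching locus where edgeR called 0 and 0, and RLE factors and both other filters kept 0. Over the gradient edgeR called 5 pairs and 1 switching locus. DESeq2 called 70 pairs and 7 switching loci, a filter of 1 count per end gave 8 pairs, and the number in the fraction name as covariate gave 0 and 0. Leaving out 1 fraction at a time gave 0 to 14 pairs and 0 to 2 switching loci. The chromosome 8 call was lost without fraction 2, named 1 (slope -1.15), without fraction 5, named 7.5 (slope -1.20) and with the fraction names (slope -0.47 per unit of the name), always with the same sign. What set these losses was not tested. Depth limits the shares at 8 h: 13 switching loci had 30 or fewer reads over both ends there. No paired analysis was possible because single times and fractions have 1 library each and share no replicate numbers beyond 1.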
